A study of Drosophila melanogaster with 8 samples.

Results

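ChLD3 (chitin deacetylase-like 3, NM_135962.3) and 9 further genes that make, modify, bind or degrade chitin were followed in RNA of the larval brain of Drosophila melanogaster. The 9 are verm, serp, Cda4, Cda5, Cda9, kkv, Gasp, obst-A and Cht2. ChLD3 was chosen by its lower count in STIM KO, so its difference between the genotypes is described and not tested, and the other members were listed with it by their known role. These 10 genes, of 17225 genes in the count files, have 27 of the 34463 RefSeq transcripts counted.

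Chitin is a polymer of N-acetylglucosamine that forms the fibres of the insect cuticle and of the inner lining of the tracheal tubes, which carry air into every tissue, the brain included. A membrane-bound synthase extrudes the polymer, deacetylases remove acetyl groups from it and so alter how fibres pack, binding proteins hold the fibres in a matrix, and chitinases cut the old matrix at each moult. A dissected brain carries tracheal branches on its surface and inside it.

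STIM KO animals carry a null mutation of Stim, which encodes a calcium sensor of the endoplasmic reticulum, made with CRISPR-Cas9. Their brains were taken at 72 to 76 h after egg laying (AEL). Brains of CS, the wild-type Canton S, came from animals of 58 to 62 h AEL. Genotype and age therefore differ together and cannot be told apart in any comparison below. The paper treats these ages as developmentally comparable, both at the middle of the same larval instar. How closely the brains matched in stage was not tested here. Each genotype had 4 libraries from separately isolated RNA, each of 15 to 20 pooled brains, in which all cells of the brain and what adheres to it were mixed. In such bulk RNA, fewer cells of a type and less RNA per cell cannot be told apart.

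Of the 6 member transcripts tested, 4 had lower levels in every STIM KO library than in any CS library, where 2.9% of all 5829 transcripts did. They are those of the deacetylases ChLD3 and Cda4, of the chitin-binding protein obst-A and 1 of 2 of the chitin-binding protein Gasp (NM_141354.3). Nothing is read from this count, since the contrast is the one that chose ChLD3. Moreover, obst-A passed the filter on low counts through its CS libraries alone. The fitted log2 fold changes of these 4 transcripts were -2.65, -2.003, -2.31 and -1.25. None of the last 3 passed the test over all transcripts with genotype alone. The second Gasp transcript and the chitinase Cht2 overlapped between the genotypes. For verm, serp, Cda5, Cda9 and the synthase kkv too few reads could be assigned for a comparison.

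Between 900062 and 1713082 reads were counted on transcripts in STIM KO libraries, against 395680 to 2090717 in CS libraries. In both genotypes replicates 1 and 2 stood apart from replicates 3 and 4. Reads that fell on more than 1 feature (ambiguous) made up 9.89% to 18.0% of all reads in the first pair and 33.5% to 34.5% in the second. These pairs of replicates are called library sets here, and no source used here names a batch. Of the targeted gene Stim, transcript NM_001298380.1 had 0 counts in the 4 STIM KO libraries, against 2, 3, 6 and 9 counts in CS, while NM_206747.3 had 14, 19, 3 and 2 counts in STIM KO, against 4, 1, 6 and 5 counts in CS. The counts of the second transcript therefore do not separate the genotypes, and whether its reads come from a part of the gene left in the mutant is not given in the sources used here. A count of 0 allows up to 3 counts at 95% confidence, which correspond to 1.45 to 4.33 CPM (counts per 1000000 counted reads after TMM scaling) in STIM KO libraries and to 1.28 to 9.51 CPM in CS libraries. This floor covers counting error only.

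Markers of the brain's own cells were counted in every library. The 5 neuronal markers, elav among them, summed to 586 to 3048 CPM in STIM KO and 385 to 3223 CPM in CS, and the 5 glial markers, repo among them, to 163 to 276 CPM in STIM KO and 136 to 355 CPM in CS, with Gli at 0. Of the 5 tracheal markers, trh, btl, dysf and uif were at 0 in all 8 libraries. Each of them has several transcripts that share most of their exons, with 0% to 6.30% of exon bases in a single transcript, so these zeros say little. The fifth, tyn, a protein of the apical matrix, had 20.1 to 49.1 CPM in STIM KO and 14.4 to 28.5 CPM in CS. The 7 markers of epidermis and apical matrix summed to 7.96 to 22.1 CPM in STIM KO and 15.8 to 42.9 CPM in CS, with pot and sha at 0. The tissue in which the chitin genes were transcribed, trachea or other, is thus not shown by these markers, and their part in the differences of the chitin genes was not tested.

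Whether a read could be counted on a chitin gene depended on the gene model. A read that matches more than 1 feature is tallied in the files as ambiguous and on no transcript, and the transcripts of 1 gene can share exons. Of the exon bases of ChLD3, 86.9% lie in a single transcript, and the share was 100% for Cda4, 66.5% for Gasp, 43.8% for Cht2 and 35.2% for obst-A. It was 20.2% for Cda9, 12.4% for serp, 8.44% for Cda5, 7.81% for verm and 3.10% for kkv. The 2 members with 1 transcript held 1918 counts over the 8 libraries, and the 8 members with several held 1392 counts. Over the 48 genes of a chitin list by role, the 23 genes with 1 transcript had a median of 53 counts and the 25 genes with several a median of 6. Single genes departed from this, with 231 counts for fdl at a share of 5.64% and 1 count for Cht4 at 100%, and the relation was not tested. With so few bases in a single transcript, the low counts of verm, serp, Cda5, Cda9 and kkv cannot be read as low expression. At least 1 count was found for 16 of the 27 member transcripts, and 6 transcripts of 5 genes (ChLD3, Cda4, Gasp with 2, obst-A and Cht2) passed the filter on low counts and were tested.

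**Figure D1:**
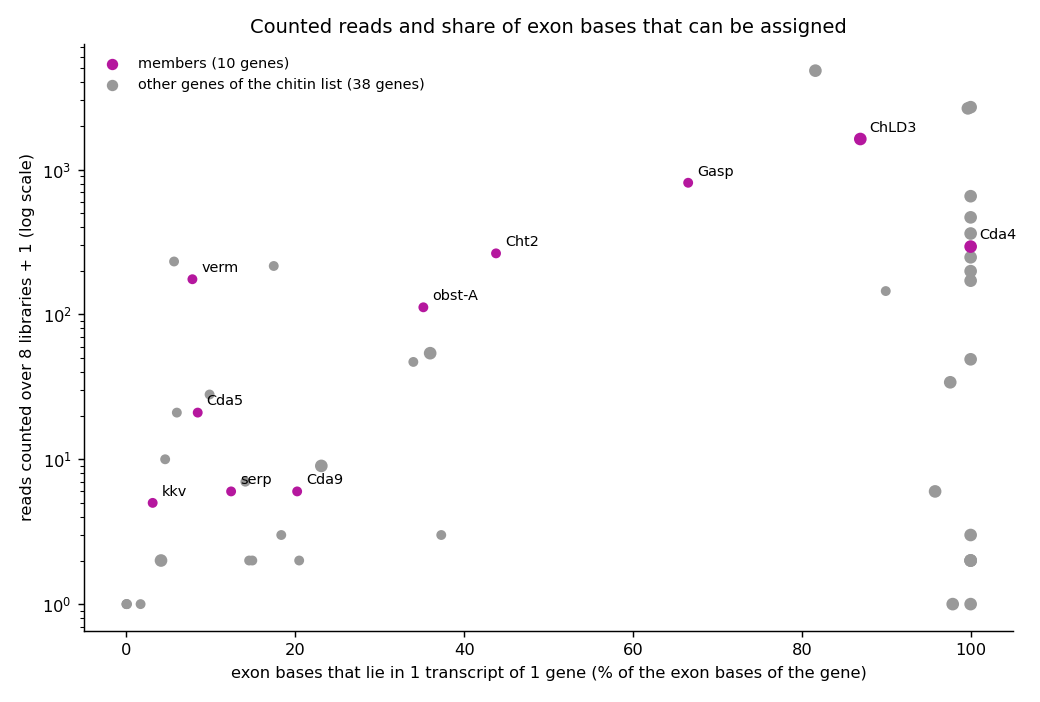
Reads counted over the 8 libraries plus 1 (log scale) against the percentage of a gene's exon bases that lie in 1 transcript of 1 gene, for the 48 genes of the chitin list, with larger points for genes of 1 transcript. ChLD3 and Cda4 stand at the right, with 1625 and 293 counts, and kkv, serp, Cda5, Cda9 and verm stand below 25% with 4 to 174 counts.

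The deacetylases come first. ChLD3 belongs to the family of secreted proteins that join a polysaccharide deacetylase domain to chitin-binding and LDL receptor class A domains, and lies on 2L from 16738850 to 16742610 (dm6, plus strand). It had 31, 37, 41 and 69 counts in STIM KO replicates 1 to 4, against 29, 92, 530 and 796 counts in CS. Scaled to library size, ChLD3 had 30.8, 53.4, 19.9 and 34.7 CPM in STIM KO, against 91.9, 185, 247 and 340 CPM in CS. Every STIM KO library lay below every CS library, and the lowest CS library, replicate 1, rests on 29 counts. The fitted log2 fold change of STIM KO over CS was -2.65 (SE 0.55), and it was -2.61 (SE 0.48) with the library set as a term. These values chose the gene and are given as a description.

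The difference of ChLD3 had an unequal size in the library sets. The mean log2 CPM of STIM KO less that of CS was -1.65 for replicates 1 and 2, against -3.39 for replicates 3 and 4. In STIM KO the sets overlapped, and in CS replicates 3 and 4 were higher than 1 and 2. The interaction of genotype and library set was -1.68 on the log2 scale (SE 0.71), and did not pass the edgeR quasi-likelihood test (adjusted p = 0.303, Benjamini-Hochberg over the 5829 transcripts tested, as for every edgeR adjusted p given here). None of the 6 member transcripts passed that test, by edgeR or by DESeq2, and 0% of all transcripts did by edgeR. At an unadjusted p under 0.05 it took in 1 of the 6, ChLD3, against 15.4% of all transcripts.

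Exons of ChLD3 overlap those of LSm7, which is read from the other strand. The kit does not mark strand, so the gene from which a read in the overlap came is not known. Whether such reads were counted on either gene depends on the strand setting of the counting, which is not given. The transcript NM_135963.4 of LSm7, a gene of the RNA-processing LSm family, had 8, 3, 6 and 7 counts in STIM KO, against 4, 10, 20 and 37 counts in CS. Its second transcript had 0 counts in every STIM KO library, against 0, 1, 11 and 21 counts in CS. Reads on exons that the LSm7 transcripts share can be tallied as ambiguous, so these counts do not bound the reads from the overlap. The part of such reads in the counts of ChLD3 was not tested.

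Markers of the ring gland, the endocrine gland attached to the larval brain that makes ecdysone and juvenile hormone, were lower in STIM KO in sum, as ChLD3 was. The sum of phtm, dib, sad and nvd, which encode enzymes of ecdysone synthesis, and of jhamt, an enzyme of juvenile hormone synthesis, was 203, 212, 111 and 447 CPM in STIM KO, against 425, 520, 1308 and 1499 CPM in CS. STIM KO replicate 4 lay between CS replicates 1 and 2 and the other STIM KO libraries lay below CS. Divided by this sum, ChLD3 was 0.152, 0.252, 0.179 and 0.0774 in STIM KO, against 0.216, 0.357, 0.189 and 0.227 in CS. On this scale the genotypes overlapped, since STIM KO replicate 2 was above CS replicates 1, 3 and 4. STIM KO replicates 1, 3 and 4 lay below every CS library. All 5 markers were counted, and sad, with 4925 counts, led the sum in CS. In STIM KO the sum was led by nvd in replicates 1 and 3, by dib in replicate 2 and by sad in replicate 4. The ratio thus depends on which markers are summed, and it is not a level per amount of ring gland. The marker sad had 35.8, 17.3, 25.2 and 193 CPM in STIM KO, against 257, 351, 963 and 904 CPM in CS, with no overlap. The genotypes overlapped for nvd, at 141, 85.2, 43.2 and 159 CPM in STIM KO, against 66.6, 92.7, 184 and 368 CPM in CS. They overlapped for dib as well, at 19.9, 96.7, 42.2 and 92.4 CPM in STIM KO, against 79.2, 56.4, 156 and 219 CPM in CS. Salivary gland markers, led by ng1 and ng2, went the other way, with a sum of 45.1 to 411 CPM in STIM KO and 6.34 to 54.6 CPM in CS, and Sgs3 and Sgs5 at 0. The part of either tissue in the difference of ChLD3 was not tested.

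**Figure D2:**
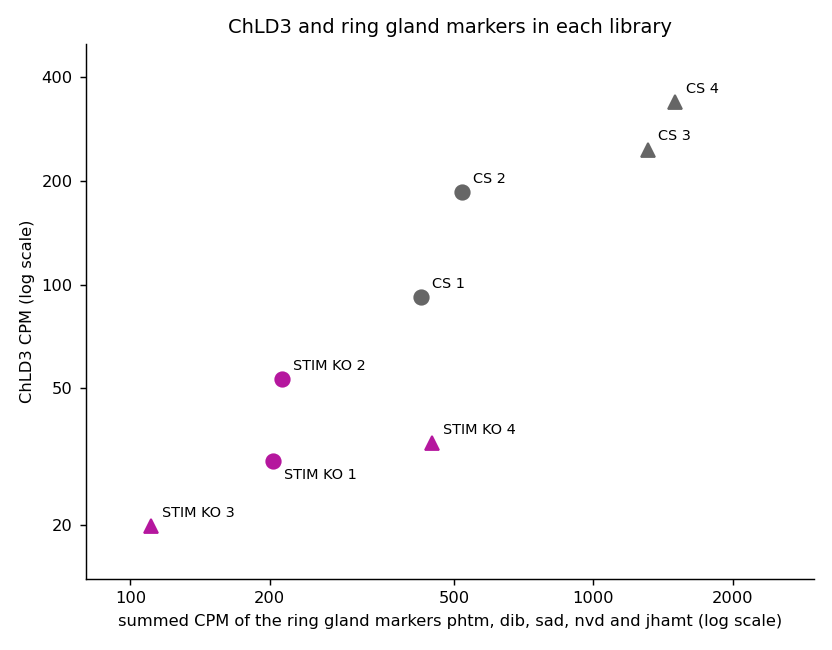
ChLD3 in CPM against the summed CPM of 5 ring gland markers in each library, both on log scales, with STIM KO in magenta, CS in grey, circles for replicates 1 and 2 and triangles for 3 and 4. The STIM KO libraries lie at 111 to 447 CPM of the markers and 19.9 to 53.4 CPM of ChLD3, and the CS libraries at 425 to 1499 CPM of the markers and 91.9 to 340 CPM of ChLD3.

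Cda4, a deacetylase with a chitin-binding domain and without the LDL receptor domain, lies on X from 22583634 to 22632710 (minus strand) and has 1 transcript, NM_167788.2. It had 11.9, 4.33, 14.5 and 14.6 CPM in STIM KO, against 34.9, 74.6, 45.7 and 31.1 CPM in CS. The genotypes did not overlap, and the means were 11.3 ± 4.84 CPM in STIM KO and 46.6 ± 19.7 CPM in CS (SD, n = 4 each). The fitted log2 fold change was -2.003 (SE 0.58) with an edgeR adjusted p of 0.577, and did not pass. With DESeq2 the log2 fold change was -1.99 and the adjusted p 0.0347, and over all alternatives the adjusted p lay between 0.0289 and 0.9997. Cda4 was lower in both library sets, with a difference of mean log2 CPM of -2.58 in replicates 1 and 2 and -1.29 in replicates 3 and 4.

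verm and serp encode the secreted deacetylases of the tracheal lumen, which limit the length of the tubes in the embryo, and are neighbours on 3L (19690033 to 19695260 and 19700977 to 19708015, both on the minus strand). The main transcript of verm, NM_168809.4, had 2, 0, 5 and 23 counts in STIM KO, against 0, 0, 42 and 92 counts in CS. In replicates 3 and 4 this was 2.42 and 11.6 CPM in STIM KO, against 19.6 and 39.3 CPM in CS. In replicates 1 and 2, in contrast, verm was at or under the floor in both genotypes and no direction can be read. The second verm transcript counted, NM_001169998.3, had 0 counts in STIM KO, against 0, 0, 5 and 5 counts in CS. A single transcript of serp, NM_168811.2, had a count, with 1 in the 4 STIM KO libraries and 4 in the 4 CS libraries.

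Cda5 (2L, 25402 to 65404, minus strand) and Cda9 (2R, 17128480 to 17130334, plus strand) are further putative deacetylases of the family. Cda5 had 20 counts over 4 of its 8 transcripts, and none of these had more than 5 counts in a library. Cda9 had 5 counts, 3 of them in STIM KO replicate 4 and 1 each in CS replicates 3 and 4. Nothing about the genotypes can be read from either gene with so few reads assigned.

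The chitin synthase kkv, which makes the chitin of epidermis and trachea, lies on 3R from 5378093 to 5392866 (minus strand). It had 4 counts in all, on NM_169052.3, with 0 counts in STIM KO, against 0, 0, 3 and 1 counts in CS. No fold change is given, since both genotypes were at or under the floor.

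The chitin-binding members are Gasp and obst-A. Gasp, a secreted protein with peritrophin-type chitin-binding domains found in the tracheal lumen, lies on 3R from 6088799 to 6100887 (minus strand). Its transcript NM_141354.3 had 8.95, 31.8, 33.0 and 30.6 CPM in STIM KO, against 38.03, 36.3, 104 and 69.1 CPM in CS. The genotypes did not overlap, but the highest STIM KO library and the lowest CS library were close. The log2 fold change was -1.25 (SE 0.59, edgeR adjusted p = 0.843).

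The second Gasp transcript, NM_001104224.2, had levels that overlapped widely, with 6.96, 0, 23.8 and 29.1 CPM in STIM KO, against 0, 16.1, 22.8 and 27.3 CPM in CS. Its log2 fold change was -0.18 (SE 1.11), an error wide enough to hold a change of either sign, and the edgeR adjusted p was 0.999. Its share of the reads counted on Gasp differed between libraries. In STIM KO the share was 43.8% (7 of 16 reads, 95% Wilson interval 23.1% to 66.8%), 0% (0 of 22, up to 14.9%), 41.9% (49 of 117, 33.3% to 50.9%) and 48.7% (58 of 119, 39.9% to 57.6%). In CS it was 0% (0 of 12, up to 24.2%), 30.8% (8 of 26, 16.5% to 49.99%), 18.0% (49 of 272, 13.9% to 23.0%) and 28.3% (64 of 226, 22.8% to 34.5%). Between replicates 3 and 4 of the genotypes, the intervals of STIM KO replicate 4 and both CS libraries did not overlap, and over all 4 libraries the shares of the genotypes did overlap. The intervals cover counting error only, and the difference of the shares was not tested over samples.

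**Figure D3:**
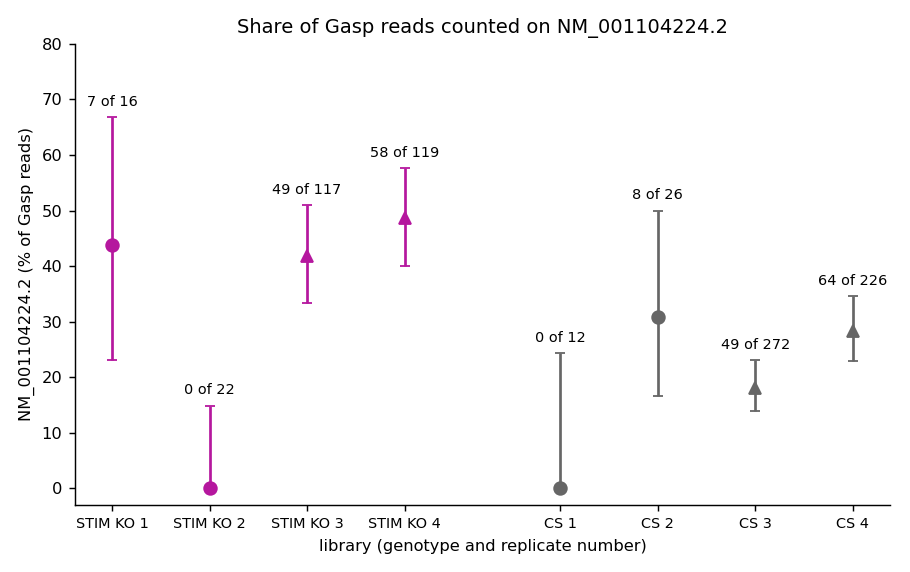
Percentage of the reads counted on Gasp that were counted on transcript NM_001104224.2 in each library, with 95% Wilson intervals and the counts above them, for STIM KO (magenta) and CS (grey). STIM KO replicates 1, 3 and 4 stand at 41.9% to 48.7% and CS replicates 2 to 4 at 18.0% to 30.8%, while STIM KO replicate 2 and CS replicate 1 have 0 of 22 and 0 of 12 reads.

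obst-A, a scaffold protein of the obstructor family that binds chitin and gathers deacetylases in the forming matrix, lies on X from 20239855 to 20243209 (plus strand). Its transcript NM_134534.3 had 2.98, 7.22, 1.45 and 3.01 CPM in STIM KO, against 9.51, 24.2, 25.2 and 10.7 CPM in CS, with no overlap. The level was low throughout, at 3, 5, 3 and 6 counts in STIM KO, against 3, 12, 54 and 25 counts in CS. Only the CS libraries took the transcript past the filter on low counts, so a lower level in STIM KO was favoured by the filter. The log2 fold change was -2.31 (SE 0.72, edgeR adjusted p = 0.617), and the adjusted p over all alternatives lay between 0.0367 and 0.9997. STIM KO replicates 1 and 3 and CS replicate 1 are at the floor of 3 counts, so that the lack of overlap rests on a CS library at its floor of 9.51 CPM, against 7.22 CPM in STIM KO replicate 2.

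Cht2, a chitinase of the glycosyl hydrolase family 18, lies on 3L from 1752328 to 1755934 (minus strand) and overlaps CG13921 on the other strand, whose transcript NM_001274352.1 had 0, 0, 50 and 31 counts in STIM KO, against 0, 0, 20 and 8 counts in CS. NM_001259621.2 had 9.95, 24.5, 24.7 and 22.6 CPM in STIM KO, against 44.4, 50.4, 22.4 and 17.1 CPM in CS. The genotypes overlapped. Cht2 was lower in STIM KO in replicates 1 and 2, by a difference of mean log2 CPM of -1.50, but not in replicates 3 and 4, where the difference was 0.26. Over all libraries it had a log2 fold change of -0.68 (SE 0.58, edgeR adjusted p = 0.992). The second transcript with a count, NM_001274353.1, had 13 counts in all.

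**Figure D4:**
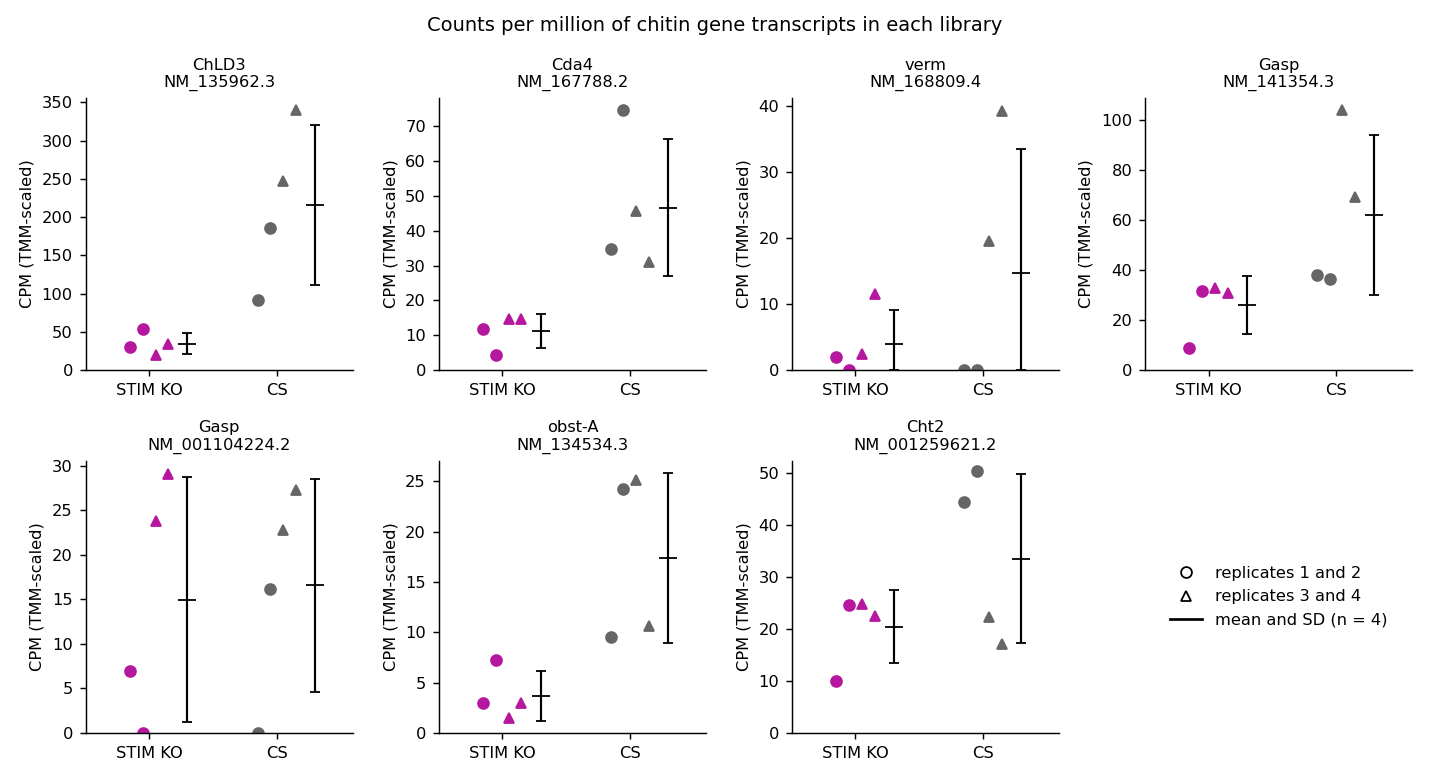
TMM-scaled CPM of 7 transcripts of the member genes in each library, with STIM KO (magenta) left of CS (grey), circles for replicates 1 and 2, triangles for replicates 3 and 4, and the mean with SD (n = 4, bars end at 0) in black. ChLD3, Cda4, obst-A and Gasp NM_141354.3 do not overlap between the genotypes, and verm, Cht2 and Gasp NM_001104224.2 do.

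Counted together, 4 of the 6 tested member transcripts did not overlap and were lower in STIM KO, where 2.9% of all 5829 transcripts were. All 6 had a negative fold change, with a median of -1.63 on the log2 scale, where the median of all transcripts was 0.05 and 2751 of them were negative. These figures come from the contrast that chose ChLD3 and are read no further. Of the 5 tested transcripts of the other members, 0 passed an edgeR adjusted p of 0.05, as did 0% of all transcripts. At an unadjusted p under 0.05 there were 2 of 5, Cda4 and obst-A, where 2.74% of all transcripts were lower. Since obst-A passed the filter on low counts through CS alone, its direction was favoured by the filter and this count is read no further. DESeq2 called 1 of the 5, Cda4, where it called 0.703% of all transcripts lower.

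A fit that held the library set as a term gave 0.343% of all transcripts as lower in STIM KO. Cda4 had a log2 fold change of -1.98 (SE 0.51), obst-A of -2.44 (SE 0.62) and Gasp NM_141354.3 of -1.20 (SE 0.45), with edgeR adjusted p of 0.104, 0.101 and 0.214. None of the 5 transcripts of the other members passed, and with the replicate number as a block none passed either, where 0.24% of all transcripts did. When the library set was the term and every transcript with at least 1 count was kept, Cda4 and obst-A passed, with edgeR adjusted p of 0.0289 and 0.0367, where 1.4% of all transcripts passed and were lower. This alternative was chosen after seeing the data.

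The library set was not the contrast that chose ChLD3. A choice by genotype alone can still favour genes with little spread between the sets, so the measure is not independent of that choice. Of the 6 member transcripts tested, 5 did not pass the test of the library set. The log2 fold change of replicates 3 and 4 over 1 and 2, in a fit with genotype, was 0.26 (SE 0.46) for ChLD3, 0.07 (SE 0.49) for Cda4, -0.43 (SE 0.60) for obst-A and -0.41 (SE 0.51) for Cht2. For Gasp it was 2.11 (SE 0.80) on NM_001104224.2 and 0.95 (SE 0.44) on NM_141354.3. The one that passed was Gasp NM_001104224.2 with an edgeR adjusted p of 0.046, where 51.1% of all transcripts passed. The median size of the difference was 0.42 for the 6 tested and 1.27 for all transcripts. With 6 transcripts, some of them at low counts, this comparison is read no further. This term averages over the genotypes, so a small value does not show that a transcript was alike in both sets. Replicates 3 and 4 were higher than 1 and 2 for ChLD3 in CS and not in STIM KO. For Cht2 they were lower in CS and not in STIM KO. Over the alternatives the adjusted p of Gasp NM_001104224.2 lay between 0.00198 and 0.102, and without CS replicate 3, CS replicate 4 or STIM KO replicate 4 none of the members passed. The verm transcript NM_168809.4, which the filter removed, was higher in replicates 3 and 4 by 3.35 to 7.78 on the log2 scale in the 7 alternatives that kept it, with adjusted p between 6e-05 and 0.0412.

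Of the wider chitin list of 48 genes in 8 roles, 16 transcripts of 15 genes were tested, and 6 genes had no count: Chs2, Cht6, Cht12, Hexo1, Peritrophin-15a and Peritrophin-15b. The median log2 fold change was -0.77 over the 16 and -0.07 over the 10 that are not members. Apart from ChLD3, 0 of 15 passed the edgeR test in the fit of genotype alone. At an unadjusted p under 0.05 there were 4, all lower in STIM KO, where 2.74% of all transcripts were lower. Of these, obst-A passed the filter on low counts through CS alone, and obst-B and Cht7 mainly through CS, so the filter favoured their direction. The lowest fold changes of the list were those of obst-B, Cht7, ChLD3, obst-A, Cda4 and Cht5. Cht5 too passed the filter mainly through CS. This order comes from the contrast that chose ChLD3, and nothing about roles is read from it.

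Among the chitinases, Cht5, an enzyme of the moulting fluid, had 0.995, 4.33, 56.2 and 3.01 CPM in STIM KO, against 72.9, 56.4, 95.04 and 36.7 CPM in CS. STIM KO replicate 3 lay between the CS libraries, and the other 3 lay well below them. Its fitted log2 fold change was -1.97 (SE 1.07, edgeR adjusted p = 0.867). In the fit with library set it was -2.42. Without STIM KO replicate 3, the library that lay among CS, it was -4.53 with genotype alone and with the set term. It did not pass with genotype alone (edgeR adjusted p = 0.254). With the set term it passed (edgeR adjusted p = 0.0382), in an alternative added after seeing the data. With the set term and any other library left out it did not pass, with edgeR adjusted p between 0.207 and 0.430. Leaving out the library that lay among CS favours a lower level in STIM KO, so nothing is read from that pass. Cht7, a chitinase with a pair of catalytic domains, had 0, 2.89, 2.42 and 7.03 CPM in STIM KO, against 3.17, 10.1, 90.8 and 10.7 CPM in CS. Its log2 fold change was -3.17 (SE 1.201), and CS replicate 3 held 195 of its 247 counts. Cht11, a further chitinase, had overlapping values, at 50.6 ± 29.8 CPM in STIM KO and 40.9 ± 28.7 CPM in CS (SD, n = 4 each).

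Among the chitin-binding genes, obst-B, of the same family as obst-A, had 3.98, 2.89, 1.45 and 7.03 CPM in STIM KO, against 0, 16.1, 91.3 and 57.2 CPM in CS. CS replicate 1, with 0 counts and a floor of 9.51 CPM, is the only CS library that was not above every STIM KO library. It had a log2 fold change of -3.42 (SE 1.12, edgeR adjusted p = 0.617). In replicates 3 and 4 the difference of mean log2 CPM was -3.89, and in replicates 1 and 2 it was -0.06.

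Of the 5 genes that make the precursor of the polymer, Gfat2 and nst were tested. Gfat2, the first enzyme of the hexosamine pathway that provides the sugar for chitin and for glycoproteins, averaged 377 ± 225 CPM in STIM KO and 298 ± 193 CPM in CS. For nst, the phosphoacetylglucosamine mutase of the same pathway, the means were 194 ± 106 CPM in STIM KO and 186 ± 124 CPM in CS (SD, n = 4 each). Their log2 fold changes were 0.34 (SE 0.66) and 0.06 (SE 0.63), and neither passed the test. Gnpnat, an acetyltransferase of that pathway, was not tested, with 27 counts and a difference of mean log2 CPM of -0.28. Of the hexosaminidases, Hexo2 had a log2 fold change of 0.28 (SE 1.18) and fdl, which trims N-glycans, of -0.85 (SE 0.80). Of the chitinase-like growth factors, which lack the enzyme's activity, Idgf1 had 0.73 (SE 0.72) and Idgf4 NM_001298139.1 had -0.19 (SE 0.75), and none of these 4 passed. Gfat2 and nst were higher in replicates 3 and 4 by 1.71 and 1.601 on the log2 scale.

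**Figure D5:**
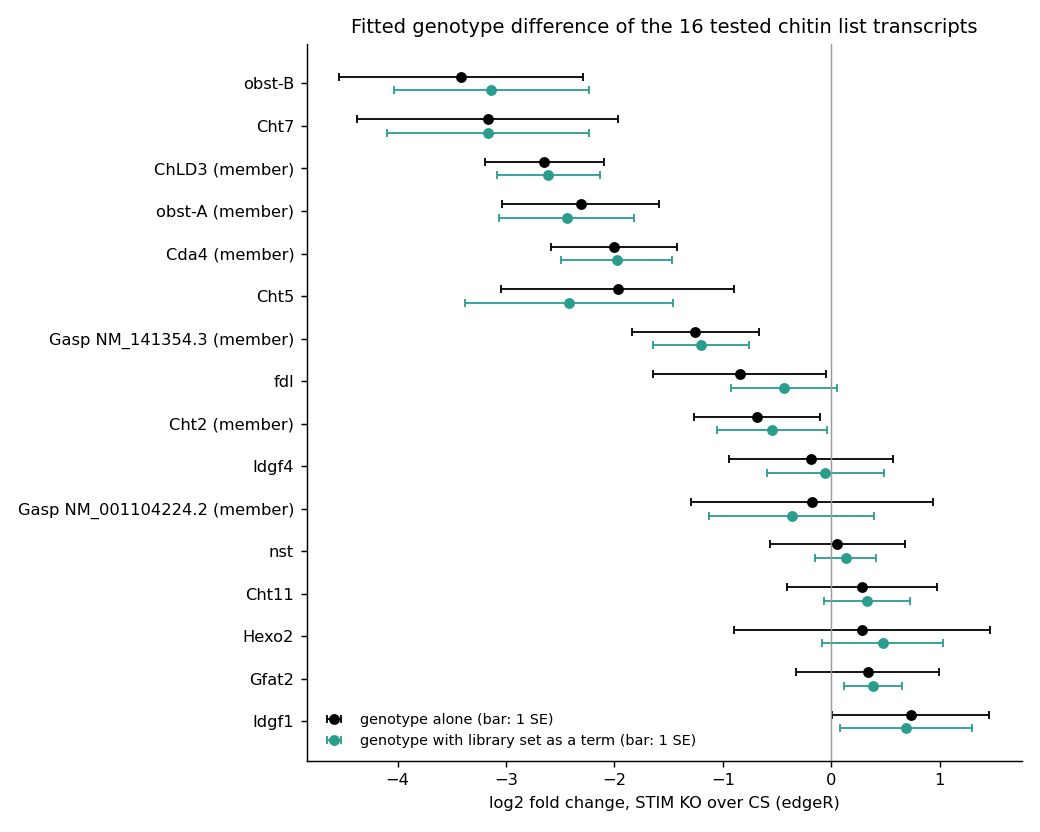
Fitted log2 fold change of STIM KO over CS with 1 SE for the 16 tested transcripts of the chitin list, from edgeR with genotype alone (black) and with library set as a term (green), ordered by the first. Values run from -3.42 for obst-B to 0.73 for Idgf1, with ChLD3 at -2.65, obst-A at -2.31 and Cda4 at -2.003.

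Per length, ChLD3 stood high among the chitin genes of CS brains. In CPM per kilobase of exon, over the 21 genes of the list with 1 RefSeq transcript and a count, ChLD3 had 15.3 ± 6.2 in STIM KO and 95.4 ± 46.0 in CS (SD, n = 4 each). In CS only Gfat2 had a higher mean, at 117 ± 75.8, and nst and Hexo2 followed at 84.4 ± 56.4 and 69.3 ± 69.5, all within each other's spread. In STIM KO, Gfat2, nst, Hexo2 and Cht11 had higher means, at 148, 88.1, 85.0 and 32.1, and ChLD3 came next. Cda4, the other deacetylase with 1 transcript, had 5.9 ± 2.5 in STIM KO and 24.1 ± 10.2 in CS. The ratio of ChLD3 to Cda4 per length was 2.21, 10.5, 1.17 and 2.03 in STIM KO, against 2.25, 2.12, 4.62 and 9.31 in CS, so that no order of the genotypes was seen in it.

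Across the 8 libraries the transcripts whose log2 CPM was most like that of ChLD3, of 5458 genes compared, were Prosalpha2 with a Pearson r of 0.977, aurB with 0.962, Cdk1 with 0.956, Jhbp16 with 0.954 and Mcm6 with 0.952. Prosalpha2 had 413, 469, 309 and 379 CPM in STIM KO, against 574, 698, 657 and 780 CPM in CS. The points share the genotype difference, the library sets and the depth, so these values describe the order of the libraries and carry no test. Of the members, obst-A was 22nd in this order with r = 0.895, Gasp NM_141354.3 was 148th with 0.730 and Cda4 was 183rd with 0.703. Cht2 (r = 0.255) and Gasp NM_001104224.2 (r = 0.158) were far down the order. With the mean of each library set removed, Prosalpha2 was again first with 0.997 and obst-A was 42nd with 0.925.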

How the data were processed

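RNA of larval brains of 4 STIM KO and 4 CS samples was turned into cDNA with the SMART-Seq v4 kit (10 ng of RNA) and into libraries with Nextera XT (1 ng of cDNA), and sequenced as single reads of 50 nt. Per the submitters' notes and the study's methods, reads were checked with FastQC, aligned to dm6 with HISAT2, sorted with SAMtools and counted with HTSeq, and the deposited files hold counts per RefSeq transcript without normalization. The counting mode, the strand setting and the annotation release are not given in the sources used here. A deposited table of the authors' own comparison (fold changes and p-values from DESeq2) was not used.

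Of 34463 features, 34384 matched a RefSeq gene name by exact identifier and 34397 by any version. Reads tallied as ambiguous or outside features were left out of the library sizes, and 3.60% to 11.6% of reads remained. Gene positions and exons were taken from the RefSeq and Ensembl annotations of dm6. The analysis used edgeR 4.0.16 under R 4.3.3 (TMM factors, filterByExpr with a minimum count of 10 and total of 15, quasi-likelihood test, Benjamini-Hochberg adjustment over 5829 transcripts). CPM values are TMM-scaled, and log2 CPM carries a prior count of 2. Alternatives used DESeq2 1.42.0 and limma 3.58.1, other factors and filters, gene sums, the library set as a term, the replicate number as a block, replicates 2 to 4, and each library left out. Fits of one library set, and those joining the set term to another choice, were added after seeing the data. The steps were tested on simulated data. Figures were made in matplotlib 3.10.9 (python 3.11.15).

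The members and lists were chosen with earlier results of these data known. All members are named, with genes of the chitin list at an unadjusted p under 0.05 in the fit with or without library set, and the 5 transcripts most like ChLD3. Others named, such as Gfat2, nst, Gnpnat, Cht11, Hexo2, fdl, Idgf1 and Idgf4, were chosen after their values were seen. The markers dys, dp and phm and the gene Cht3 were read under the RefSeq symbols dysf, dpy, phtm and Cht10. No 2 libraries agreed within sampling noise (smallest chi-square per degree of freedom 7.29). Residuals of libraries of the same number correlated between genotypes at 0.400, 0.732, 0.700 and 0.788. Other numbers of the same set correlated at 0.357 to 0.729, so these values do not tell pairing by number from the library set. The main fit had no pairs, and the replicate number was a block in an alternative only. p-values measure the spread between these RNA samples.

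Lists of 10 cell types served as checks. Beside those given above, muscle markers, led by Act57B, summed to 329 to 1849 CPM in STIM KO and 456 to 4897 CPM in CS, fat body markers to 2.51 to 11.9 CPM in STIM KO and 0 to 8.06 CPM in CS, hemocyte markers to 0 to 10.9 CPM in STIM KO and 1.71 to 12.1 CPM in CS, and midgut markers to 1.94 to 125 CPM in STIM KO and 0 to 10.1 CPM in CS.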

Additional observations from a re-analysis of the deposited data

Results flagged for a closer look

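In 20 groups of 4 libraries (10 transcripts in each genotype), the gap of the highest or lowest library to its nearest neighbour was divided by the range of the group on the log2 CPM scale and compared with Dixon's 95% critical value, which chance passes in about 1 of 20 groups. There were 3 libraries past it. Cht2 in STIM KO replicate 1, at 9.95 CPM, lay below the other STIM KO libraries with a ratio of 0.898. Gasp NM_141354.3 in the same library, at 8.95 CPM, lay below the others with 0.941. Gasp NM_001104224.2 in CS replicate 1, at 0 CPM, lay below the other CS libraries with 0.835, and this library has the fewest counted reads and a floor of 9.51 CPM.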

How the results depend on the processing

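The log2 fold change of ChLD3 kept its direction in all alternatives. It was -1.76 in replicates 1 and 2 only and -3.47 in replicates 3 and 4 only, and lay between -2.96 and -2.35 when 1 library was left out, and between -2.998 and -2.26 when the set was a term as well. The count of all transcripts that passed was 0 in the fit of genotype alone, 0 in each of its 8 fits without 1 library, and 355 at an unadjusted p under 0.05. It was 2 with library size only and with CPM above 1 in at least 4 libraries, 81 with DESeq2, 26 with limma voom, 30 with every transcript of at least 1 count, 39 with a set term (by transcript or gene sum), 14 with the replicate block, 197 in replicates 1 and 2 only, and 481 with the set term and every transcript of at least 1 count. It was 0 with upper-quartile factors, with gene sums and genotype alone, in replicates 2 to 4, and in replicates 3 and 4 only. With the set term it was 12, 2, 13 and 41 without CS replicates 1 to 4, and 72, 8, 22 and 14 without STIM KO replicates 1 to 4. Of the other members, 1 passed with DESeq2 and 2 with the set term and every transcript, and 0 in all other alternatives. Of the chitin list without ChLD3, 1 passed with DESeq2 (Cda4), 1 in replicates 1 and 2 only (Cht5), 5 with the set term and every transcript (obst-A, obst-B, Cht7, Cht5 and Cda4), and 0 to 1 with the set term and 1 library left out (Cht5 without STIM KO replicate 3). Between the library sets, 2 member transcripts passed with library size only and with DESeq2 (both of Gasp), with every transcript and with CPM above 1 (Gasp and verm), and 0 to 2 when 1 library was left out. The sign of Cht2 turned to 0.063 with limma voom and 0.22 in replicates 3 and 4 only. That of Gasp NM_001104224.2 turned to 0.031 in replicates 3 and 4 only, ran from -0.68 to 0.17 when 1 library was left out, and from -0.62 to 0.29 with the set term. A prior count of 0.5 turned no sign. The cause of these changes was not tested. Genes whose exons are shared between transcripts are limited by the reads that could be assigned to a transcript, and STIM KO values of obst-A by low counts.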
